A study of Homo sapiens with 33 samples.

Results

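The 35 genes described here encode enzymes that make, salvage or clear nucleotides: pyrimidine and purine synthesis from small precursors, the deoxynucleotide and thymidylate branch, salvage kinases and phosphoribosyltransferases, nucleotide kinases, and a pair of enzymes of breakdown. They were chosen by name, as the rows of the 3 tables deposited by the authors whose gene name was on a list of these enzymes, out of 15149 distinct names in those tables. All 35 had an entry in both A-375 tables and 34 in the UM-UC-3 table, where CTPS2 was not analysed. RNA was sequenced from 33 libraries of 2 human cancer cell lines, A-375 melanoma cells and UM-UC-3 bladder cancer cells, after CRISPR editing of GABPB1, which encodes the B1 subunit of the ETS-family transcription factor GABP. In A-375, 4 libraries came from clones lacking exons 2 to 9 of GABPB1 (B1KO), 8 from clones lacking exon 2 (B1X2KO), 2 from clones lacking exon 9 (B1LKO), 4 from clones edited at the ROSA26 locus as a control, and 2 from unedited parental cells. In UM-UC-3, 4 libraries were B1KO, 5 B1X2KO, 3 ROSA26-edited and 1 parental. The authors combined B1KO and B1X2KO into a total knockout, which held 12 libraries of 9 clones in A-375 and 9 libraries of 8 clones in UM-UC-3. The exon 9 deletion targets the long form of the protein, and is called the long-form knockout; it rests on 2 clones. Edited cells were single clones isolated by fluorescence sorting after transfection of a Cas9 plasmid, so that each clone is 1 independent line and libraries of 1 clone share its history.

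Nucleotide synthesis runs through separate purine and pyrimidine pathways that both start from phosphoribosyl pyrophosphate or join it early, and both draw on one-carbon units or amino acids. Ribonucleotide reductase then turns ribonucleotides into deoxynucleotides, and thymidylate synthase makes thymidylate, whose base DNA holds in place of the uracil of RNA. Salvage enzymes recover bases and nucleosides, and several enzymes of the deoxynucleotide branch are made mainly in cells that replicate their DNA.

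Each table holds fitted values only: the mean normalized count over the libraries of the fit, the log2 change of knockout over control, its standard error (SE) and p-values from DESeq2's Wald test. No value of a single library was used here, so the spread between clones enters only through the SE. Which control libraries entered each fit is not stated; the table names speak of parental cells, of which UM-UC-3 had 1 library. A gene is called higher or lower below when the authors' adjusted p (Benjamini-Hochberg, over the whole table) was under 0.05. In the authors' deposited tables the entry for the long form of GABPB1 had log2 changes of -10.60 ± 0.70 (SE) in the A-375 total knockout, -12.60 ± 0.71 in the UM-UC-3 total knockout and -12.79 ± 1.47 in the long-form knockout. The short form changed by -9.81 and -9.86 in the total knockouts and by 13.95 ± 1.04 in the long-form knockout, in the authors' deposited tables. Fits with a group near 0 give at most a direction, and the size of these changes is no bound. The fall of the short form in the A-375 total fit and its rise in the long-form fit are hard to reconcile with a single level in shared parental controls. How reads were divided between the forms is not stated, so the rise is not read further here. The melanocyte-lineage factor SOX10 had a mean normalized count of 14704 in the authors' deposited A-375 total table, while TYR, DCT and MLANA, genes of pigment cells, had no entry there. The authors' deposited UM-UC-3 table held the epithelial keratins KRT8 and KRT18 at 2449 and 8029. It had no entry for the urothelial UPK1B, UPK2, UPK3A, KRT5 or TP63, nor for the epithelial EPCAM and CDH1, and held 5 of the 12 markers listed. Of the melanocyte markers 2 of 6 measured were called higher in UM-UC-3, and of the epithelial markers 3 of 5 higher and 1 lower, per the authors' deposited table. Of all genes there, 17% were called higher and 14.2% lower, and marker lists this short give no result about cell identity. In A-375 none of 5 and none of 4 were called by DESeq2 in the total knockout, with 1 of each at an unadjusted p under 0.05, all in the direction above 0 (11.4% of all genes). None of 4 immune cell markers had an entry in any table.

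In both total knockouts most of the nucleotide enzymes had fitted changes below 0, and those called were mainly lower. Of 35 members, 5 were called lower in A-375 (DUT, CTPS2, ADSL, ATIC and PRPS2) and 2 higher (HPRT1 and IMPDH2) per the authors' deposited table, where 5.74% of all genes were called lower and 5.07% higher. Of 34 members in UM-UC-3, 16 were called lower and 2 higher (PPAT and ADSS) per the authors' deposited table, where 14.2% of all genes were called lower and 17% higher. The authors' deposited long-form table called no member in either direction, where 0.664% of all genes were called lower and 0.24% higher; at an unadjusted p under 0.05, 2 members lay above 0 (TYMS and GMPS; 5.71%) and 1 below (TYMP; 2.86%), near the 4.61% and 6.31% of all genes. The members' median log2 change was -0.34 in both total knockouts and 0.20 in the long-form knockout, against medians over all genes of -0.05, 0.03 and 0.02 in the order A-375 total, UM-UC-3 total and A-375 long-form. Changes below 0 were found for 26 of 35 members (74.3%), 29 of 34 (85.3%) and 2 of 35 (5.71%) in the same order, against 54.6%, 47.3% and 47.8% of all genes. Since a culture's RNA was measured as a whole, fewer cells in S phase and less RNA of a gene per cell cannot be told apart in any of these values.

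**Figure D1:**
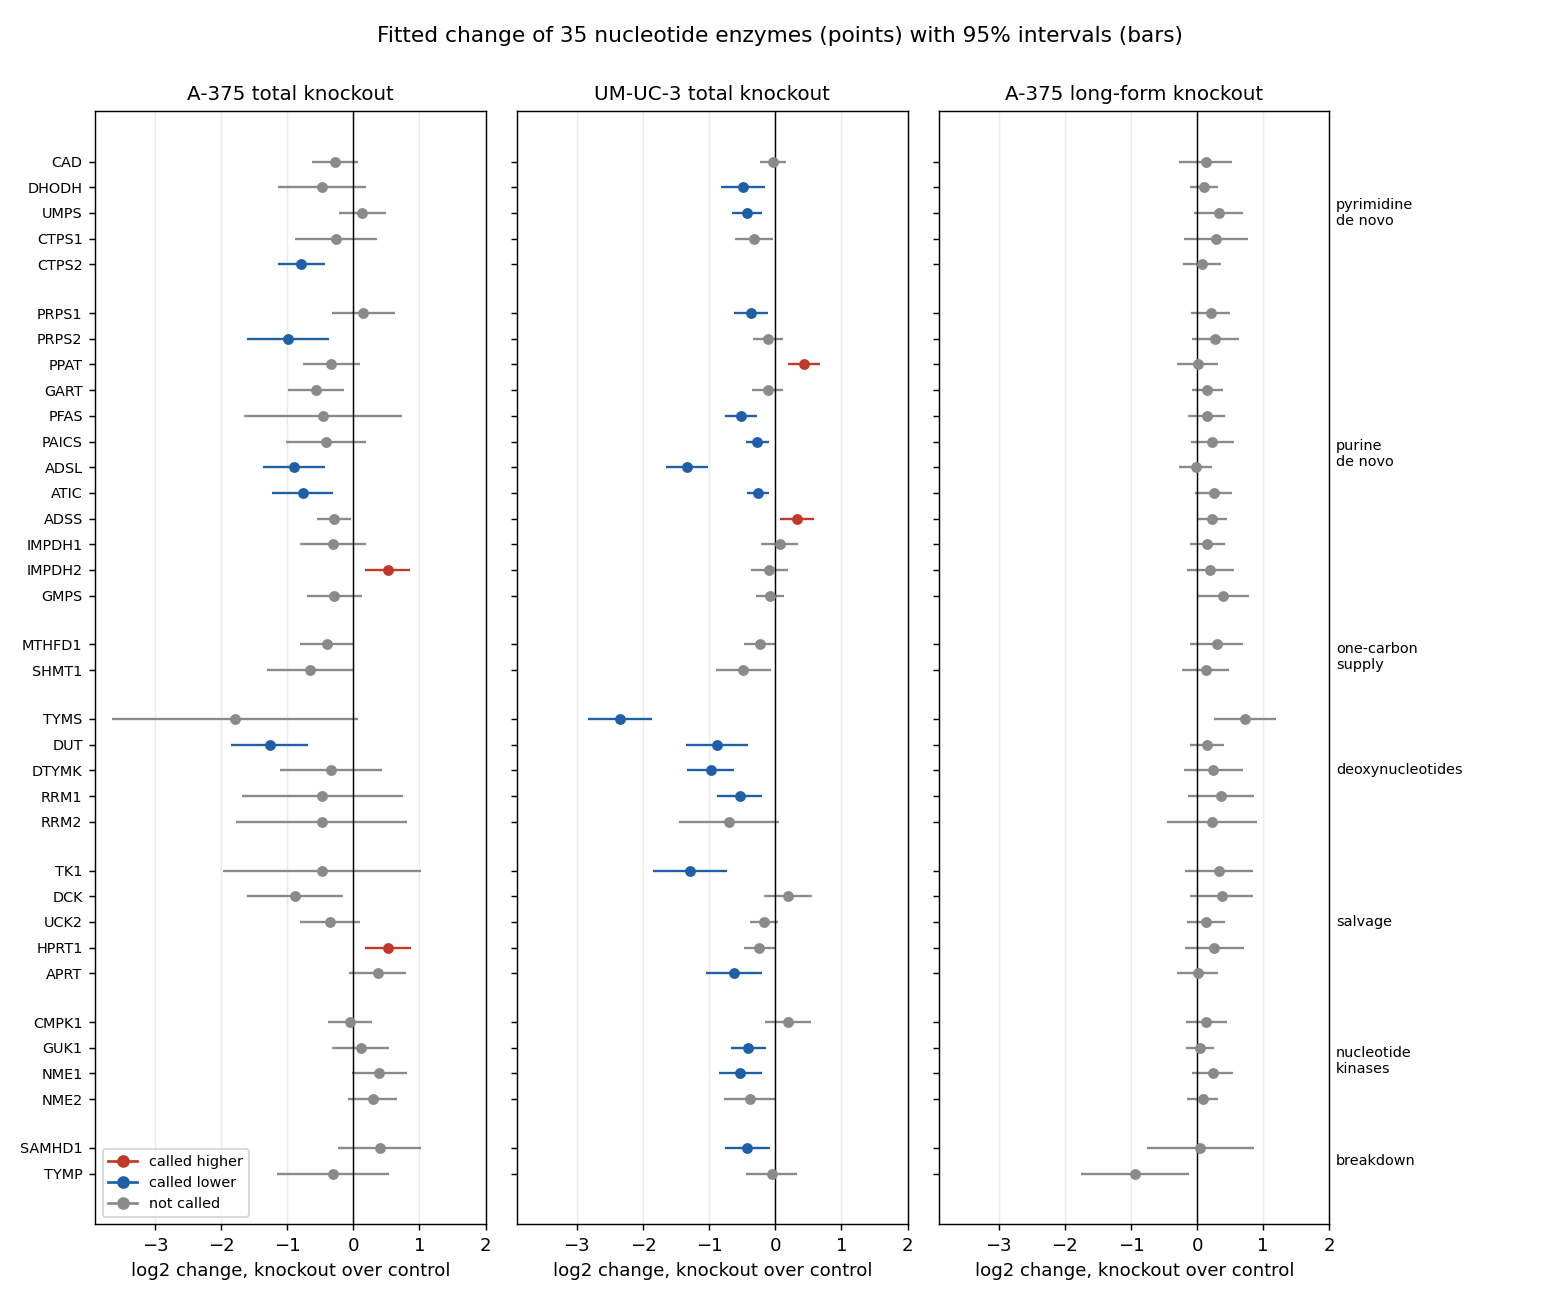
Log2 change of knockout over control (points) with its 95% interval (bars, the SE times the normal quantile) for each member in the 3 tables, grouped by role, from the authors' deposited tables. Blue marks members called lower and red those called higher at an adjusted p under 0.05: 5 and 2 in A-375, 16 and 2 in UM-UC-3, none in the long-form knockout. The wide A-375 bars of TYMS, TK1, RRM1, RRM2 and PFAS are narrower in UM-UC-3.

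The deoxynucleotide and thymidylate branch held the furthest fall of any member. TYMS (thymidylate synthase, which methylates dUMP to dTMP; chromosome 18, 657604 to 673578, plus strand, hg38) fell in UM-UC-3 by 2.35 ± 0.25 on the log2 scale, to 19.6% of control (adjusted p = 2.69e-18), per the authors' deposited table. The same gene stood at -1.79 ± 0.95 in the authors' deposited A-375 total table (28.9% of control, adjusted p = 0.218), which was not a call. In that table a change of 2.64 would have been needed for one at its SE. The 95% interval of TYMS in A-375 ran from -3.65 to 0.07, and the difference between the lines was -0.56 ± 0.98 (interval -2.48 to 1.37, adjusted p = 0.771). In the long-form knockout TYMS was at 0.72 ± 0.24 (164.9% of control, adjusted p = 0.145), per the authors' deposited table. Control and knockout levels implied by these values, taking the parental libraries as the controls, were 13255 and 2604 normalized counts in UM-UC-3, 4919 and 1422 in the A-375 total fit, and 9460 and 15603 in the long-form fit. The tables were normalized separately, so levels are to be compared within a fit only.

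The enzymes beside TYMS in the pathway were lower in UM-UC-3 as well. DUT (dUTPase, which turns dUTP into the dUMP that TYMS uses and keeps uracil out of DNA; chromosome 15, 48331011 to 48343373, plus strand) fell in both lines, by 1.26 ± 0.30 in A-375 (41.7% of control, adjusted p = 0.000981) and by 0.89 ± 0.24 in UM-UC-3 (54.1%, adjusted p = 0.00169), per the authors' deposited tables. DTYMK (thymidylate kinase, the step from dTMP to dTDP) fell by 0.97 ± 0.18 in UM-UC-3 (adjusted p = 2.88e-06) and was at -0.34 ± 0.39 in A-375 (adjusted p = 0.622), per the authors' deposited tables. TK1, the cytosolic thymidine kinase that salvages thymidine into dTMP, fell by 1.29 ± 0.29 in UM-UC-3 (41.0% of control, adjusted p = 0.00011) and was at -0.47 ± 0.76 in A-375 (adjusted p = 0.741), again from the authors' deposited tables. TYMS, DUT, DTYMK and TK1 were thus all 4 called lower in UM-UC-3, and of them DUT alone was called in A-375.

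Ribonucleotide reductase is built from a large catalytic subunit, RRM1, and a small radical-bearing subunit, RRM2 in dividing cells. RRM1 fell by 0.54 ± 0.17 in UM-UC-3 (68.9% of control, adjusted p = 0.00963), and was at -0.47 ± 0.62 in A-375 (adjusted p = 0.673), per the authors' deposited tables. RRM2 was not called in either line, at -0.69 ± 0.38 in UM-UC-3 (adjusted p = 0.157) and -0.48 ± 0.66 in A-375 (adjusted p = 0.692), per the authors' deposited tables. RRM2B, the alternative small subunit that resting and damaged cells use, rose in A-375 by 0.89 ± 0.29 (184.8% of control, adjusted p = 0.0289) and was at 0.49 ± 0.21 in UM-UC-3 (adjusted p = 0.0653), per the authors' deposited tables.

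**Figure D2:**
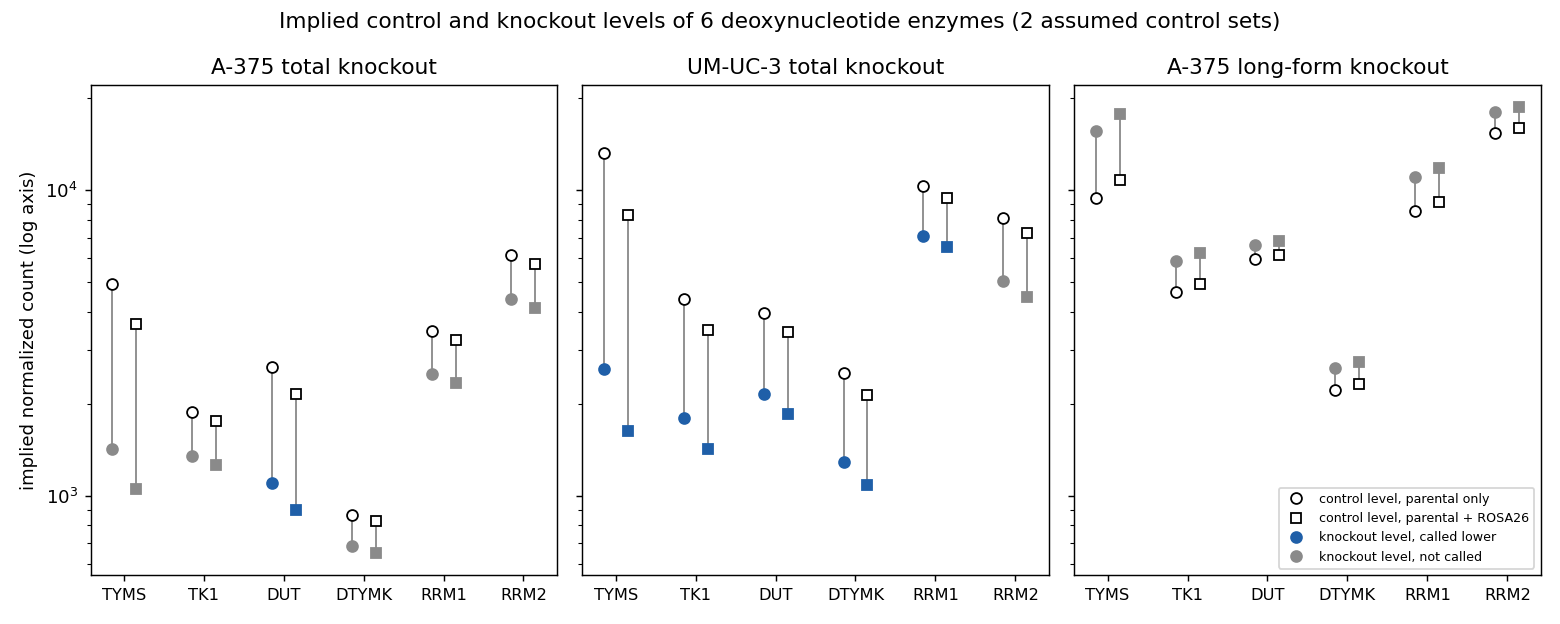
Implied normalized counts (log axis) of 6 deoxynucleotide enzymes in control (open) and knockout (filled), joined by a line, with the parental libraries (circles) or the parental and ROSA26 libraries (squares) taken as the controls. In UM-UC-3 5 of the 6 knockout levels are called lower (blue), and the drop of TYMS is the longest line; in the long-form fit every knockout level lies above its control level and none is called.

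Promoter stretches are shown for TYMS, DUT and DTYMK because they fell furthest in this branch in UM-UC-3, with matches to 2 kinds of short motif in capitals: CCGGAAG, the core of the site that GABP and other ETS factors bind, and the E2F-type octamers TTTGGCGC, TTTCGCGC, TTTCCCGC and TTTGCCGC, all searched on both strands. The sequences are the 250 bases before a RefSeq start on GRCh38.p14, read 5′ to 3′ on the gene's strand, at chr18:657403-657652 (plus strand), chr15:48331947-48332196 (plus strand, of the several starts of DUT the one with matches) and chr2:241686816-241687065 (minus strand).
TYMS: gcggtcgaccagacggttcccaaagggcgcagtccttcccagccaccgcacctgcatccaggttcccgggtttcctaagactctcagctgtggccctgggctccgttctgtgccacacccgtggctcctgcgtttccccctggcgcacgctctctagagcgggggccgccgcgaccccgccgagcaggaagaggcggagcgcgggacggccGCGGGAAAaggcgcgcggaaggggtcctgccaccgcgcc
DUT: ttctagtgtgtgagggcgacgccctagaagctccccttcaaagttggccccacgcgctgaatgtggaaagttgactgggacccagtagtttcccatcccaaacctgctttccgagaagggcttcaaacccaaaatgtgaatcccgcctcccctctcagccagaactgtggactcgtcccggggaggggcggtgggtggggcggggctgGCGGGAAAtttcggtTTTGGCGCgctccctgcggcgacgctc
DTYMK: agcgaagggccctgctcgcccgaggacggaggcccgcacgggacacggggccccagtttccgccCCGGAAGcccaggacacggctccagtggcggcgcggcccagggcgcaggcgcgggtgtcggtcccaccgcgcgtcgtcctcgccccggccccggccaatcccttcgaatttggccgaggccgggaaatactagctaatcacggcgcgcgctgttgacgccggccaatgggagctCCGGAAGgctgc
In TYMS the match is TTTCCCGC on the opposite strand, its first base 39 bases before the start. DUT holds TTTCCCGC on the opposite strand at 42 bases and TTTGGCGC at 27 bases before its start. The 2 matches of DTYMK are CCGGAAG, at 186 and 12 bases before the start. Over the windows of 250 bases before to 50 bases after a start, CCGGAAG was found for 6 of 33 members with a RefSeq window (18.2%; APRT, DTYMK, GART, NME1, RRM2 and TYMP), against 12.2% of 27305 genes. The longer CCGGAAGTG, which contains it, was found for 0 of 33, against 2.81% of genes. Any of the 4 E2F-type octamers was found for 5 members (15.2%; DCK, DUT, GART, PRPS2 and TYMS), against 3.99% of genes. Genes can have several windows, and the 33 members had 50. Counted by window, the E2F-type octamers were in 10% of member windows against 3.31% of all, and CCGGAAG in 16% against 10.3%. The 27305 genes include many without an entry in the 3 tables, so they are not matched to the members in expression. ADSL and IMPDH2 had no RefSeq window in the table used.

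The precision of the members differed between the lines. Of 29 members averaging 1000 or more normalized counts in A-375, 5 had an SE above the 95th percentile of all genes of that abundance (0.46): TYMS, TK1, RRM2, RRM1 and PFAS. The SE of TYMS in A-375 exceeded that of 99.7% of those genes, and the SE of TK1 that of 98.9%. In UM-UC-3 it was 2 of 31 members (RRM2 and TK1, above 0.26), and in the long-form fit 1 of 34 (SAMHD1, above 0.40). Among 22 genes used as markers of S phase and proliferation, 7 of the 16 with such counts in A-375 were above the same percentile, including PCNA, MKI67 and TOP2A. Of these 22 markers, 12 were called lower and 0 higher in the authors' deposited UM-UC-3 table. Their changes there ran from -1.56 to 0.07, with a median of -0.80. Of the 22, 3 were called lower and 0 higher in A-375, namely E2F2, MCM3 and RB1, with changes from -1.50 to 0.06 and a median of -0.66 in the authors' deposited table. RB1 encodes a repressor of E2F and of S phase entry, so it does not mark proliferation as the others do; without it 2 of 21 were called lower in A-375, with a median of -0.62, and 12 of 21 in UM-UC-3. In the long-form fit 0 of 22 were called by DESeq2, 4 had an unadjusted p under 0.05 and a change above 0 (18.2%, against 4.61% of all genes), and the median was 0.31. The part of cell cycle position in the falls of TYMS, TK1 and the other members was not tested.

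**Figure D3:**
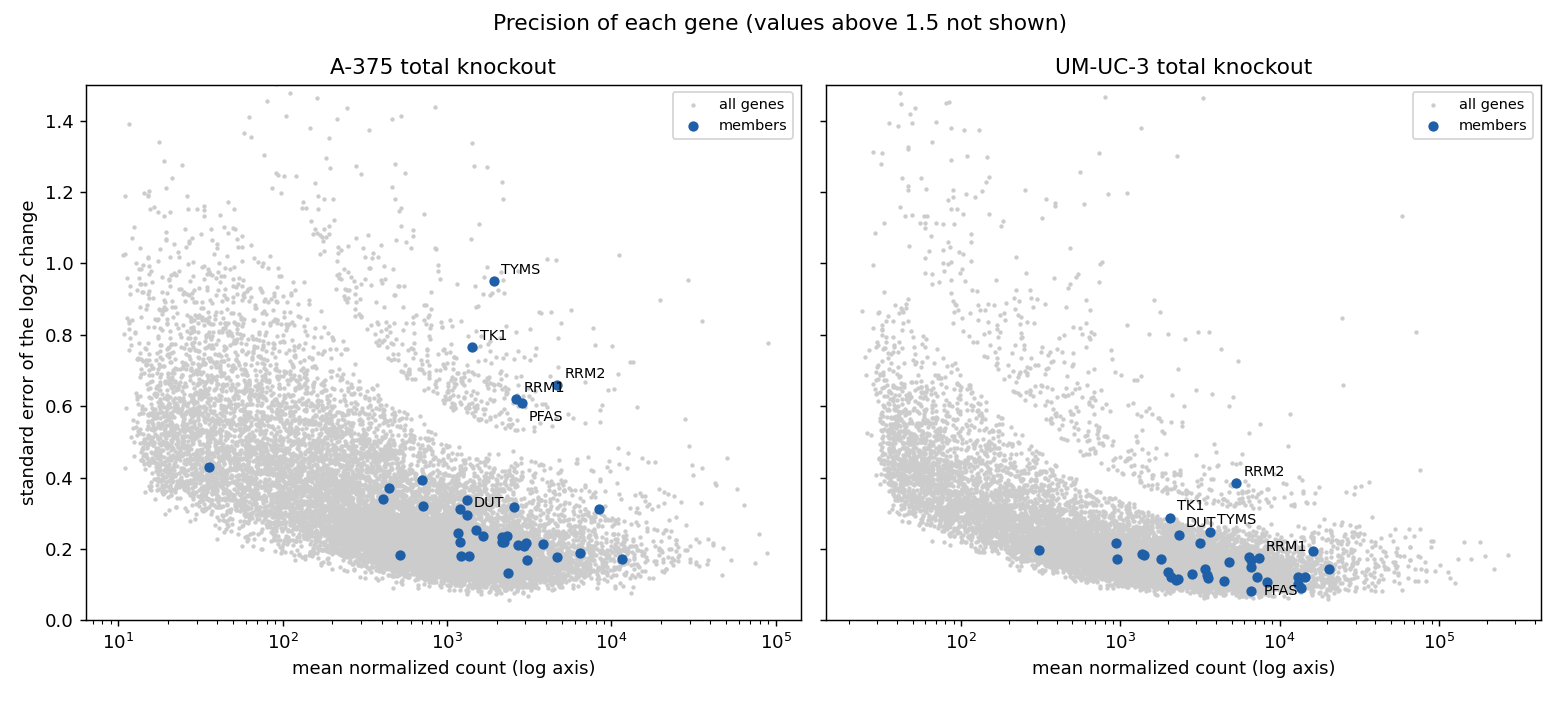
Standard error of the log2 change against mean normalized count (log axis) for all genes with a mean of at least 10 (grey) and the members (blue), in the A-375 (left) and UM-UC-3 (right) total-knockout tables. In A-375 TYMS, TK1, RRM1, RRM2 and PFAS stand above the main band of genes; in UM-UC-3 RRM2 has the widest SE of the members.

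Among the purine enzymes, ADSL and ATIC were lower in both lines and the first committed enzyme, PPAT, was higher in UM-UC-3. ADSL (adenylosuccinate lyase, which acts both in the common purine pathway and in the step to AMP; chromosome 22, 40346500 to 40390463) fell by 0.90 ± 0.24 in A-375 (53.7% of control, adjusted p = 0.00417) and by 1.33 ± 0.16 in UM-UC-3 (39.8%, adjusted p = 9.5e-14), per the authors' deposited tables. ATIC, which carries out the last steps to IMP, fell by 0.77 ± 0.24 in A-375 (58.8% of control, adjusted p = 0.0186) and by 0.26 ± 0.08 in UM-UC-3 (83.4%, adjusted p = 0.00788), per the authors' deposited tables. Implied control and knockout levels of ADSL were 2754 and 1479 normalized counts in A-375, and 10549 and 4197 in UM-UC-3, with the parental libraries as controls.

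PPAT (the amidotransferase that commits phosphoribosyl pyrophosphate to purine synthesis) and PAICS (a later, bifunctional enzyme of the pathway) lie head to head on chromosome 4, with annotated starts 126 bases apart on hg38. In the authors' deposited UM-UC-3 table PPAT rose by 0.43 ± 0.12 (135.2% of control, adjusted p = 0.00214) and PAICS fell by 0.27 ± 0.09 (82.9%, adjusted p = 0.0133). In A-375 neither was called, at -0.33 ± 0.22 for PPAT and -0.41 ± 0.31 for PAICS in the authors' deposited table (adjusted p = 0.333 and 0.417). The stretch between the RefSeq starts of the pair is shown because these starts of the pair, called in opposite directions, lie so close, chr4:56435616-56435751 on GRCh38.p14, on the strand of PAICS, with the 250 bases before the ATIC start (chr2:215311809-215312058, plus strand) for comparison; none of the motifs above occurs in either, and so no letters are in capitals.
PPAT-PAICS: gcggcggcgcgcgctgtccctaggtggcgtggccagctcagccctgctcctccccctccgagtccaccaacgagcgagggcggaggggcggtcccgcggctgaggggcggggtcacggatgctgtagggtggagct
ATIC: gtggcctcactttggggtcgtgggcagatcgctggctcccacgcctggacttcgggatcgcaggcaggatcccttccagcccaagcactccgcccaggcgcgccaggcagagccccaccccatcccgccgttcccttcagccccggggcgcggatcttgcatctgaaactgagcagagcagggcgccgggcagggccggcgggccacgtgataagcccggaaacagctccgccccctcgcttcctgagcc

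The 2 phosphoribosyl pyrophosphate synthetases, which supply the sugar for all pathways, were called in different lines. PRPS2 fell by 0.99 ± 0.31 in A-375 (50.4% of control, adjusted p = 0.0225) and was at -0.10 ± 0.12 in UM-UC-3 (adjusted p = 0.532), per the authors' deposited tables. PRPS1 fell by 0.36 ± 0.13 in UM-UC-3 (77.7% of control, adjusted p = 0.0187) and was at 0.15 ± 0.24 in A-375 (adjusted p = 0.742), per the authors' deposited tables. Neither difference between the lines passed the test (adjusted p = 0.0641 for PRPS2 and 0.221 for PRPS1). PFAS, the amidotransferase of the fourth step, fell by 0.52 ± 0.12 in UM-UC-3 (70.0% of control, adjusted p = 0.000273), while the authors' deposited A-375 table gave -0.46 ± 0.61 (adjusted p = 0.673). GART, a trifunctional enzyme of the same stretch, was at -0.56 ± 0.22 in A-375 (adjusted p = 0.0695) and -0.12 ± 0.12 in UM-UC-3 (adjusted p = 0.497), per the authors' deposited tables.

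At the branch from IMP, the AMP arm holds ADSS and ADSL, the latter called lower in both lines as given above, and the GMP arm holds the IMP dehydrogenases and GMPS. ADSS, listed under its older symbol and making adenylosuccinate on the AMP arm, rose by 0.33 ± 0.13 in UM-UC-3 (125.7% of control, adjusted p = 0.0386) and was at -0.30 ± 0.13 in A-375 (adjusted p = 0.134), per the authors' deposited tables. IMPDH2, the main IMP dehydrogenase of growing cells on the GMP arm, rose by 0.52 ± 0.17 in A-375 (143.1% of control, adjusted p = 0.0319) and was at -0.09 ± 0.14 in UM-UC-3 (adjusted p = 0.673), per the authors' deposited tables. The difference of IMPDH2 between the lines, -0.61 ± 0.22, did not pass the test (adjusted p = 0.0575). Its paralogue IMPDH1 was at -0.31 ± 0.25 and 0.07 ± 0.14 and GMPS, which makes GMP, at -0.29 ± 0.21 and -0.08 ± 0.11 in A-375 and UM-UC-3, in the authors' deposited tables; none of these was called.

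Of the pyrimidine enzymes, 1 of 5 was called lower in A-375 (20%) and 2 of 4 measured in UM-UC-3 (50%), where 5.74% and 14.2% of all genes were. None was called higher, where 5.07% and 17% of all genes were. CTPS2, 1 of 2 CTP synthetases, fell by 0.79 ± 0.18 in A-375 (58.0% of control, adjusted p = 0.000929), per the authors' deposited table. CTPS1, the other, was at -0.26 ± 0.32 in A-375 and -0.32 ± 0.15 in UM-UC-3 (adjusted p = 0.648 and 0.0819), per the authors' deposited tables. CAD, which carries the first steps of the pathway, was at -0.28 ± 0.18 and -0.03 ± 0.10 (adjusted p = 0.31 and 0.845), with its UM-UC-3 interval from -0.23 to 0.17, in the authors' deposited tables. DHODH, the mitochondrial dehydrogenase that follows, and UMPS, which finishes UMP, fell in UM-UC-3 by 0.49 ± 0.17 and 0.43 ± 0.11 (adjusted p = 0.0196 and 0.00143), per the authors' deposited table. Their A-375 values in the authors' deposited table were -0.47 ± 0.34 and 0.13 ± 0.18. The one-carbon enzymes MTHFD1 and SHMT1, which supply folate-bound carbon for purines and dTMP, were called in neither line. MTHFD1 was at -0.40 ± 0.21 and -0.23 ± 0.12, and SHMT1 at -0.65 ± 0.34 and -0.48 ± 0.22, in A-375 and UM-UC-3 of the authors' deposited tables.

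The salvage phosphoribosyltransferases and the kinases of the NME family went to opposite sides of 0 in the 2 lines. HPRT1, which salvages hypoxanthine and guanine, rose by 0.52 ± 0.18 in A-375 (143.8% of control, adjusted p = 0.0364) and was at -0.24 ± 0.12 in UM-UC-3 (adjusted p = 0.113), per the authors' deposited tables. APRT, which salvages adenine, fell by 0.63 ± 0.22 in UM-UC-3 (64.7% of control, adjusted p = 0.0155) and was at 0.37 ± 0.22 in A-375 (adjusted p = 0.279), per the authors' deposited tables. NME1, a nucleoside diphosphate kinase, fell by 0.53 ± 0.17 in UM-UC-3 (69.4% of control, adjusted p = 0.00873) and was at 0.39 ± 0.21 in A-375 (adjusted p = 0.231), per the authors' deposited tables. NME2, its neighbour, was at -0.39 ± 0.19 and 0.29 ± 0.19 in the same lines, without a call, in the authors' deposited tables. GUK1, which phosphorylates GMP, fell by 0.41 ± 0.14 in UM-UC-3 (adjusted p = 0.0127), with 0.11 ± 0.22 in A-375 in the authors' deposited tables. DCK, the deoxycytidine kinase, was at -0.88 ± 0.37 in A-375 (54.3% of control, adjusted p = 0.102) and 0.19 ± 0.19 in UM-UC-3 (adjusted p = 0.463), per the authors' deposited tables. UCK2 (uridine-cytidine kinase) and CMPK1 (the UMP and CMP kinase) were called in no table, with changes of -0.36 and -0.05 in A-375 and -0.17 and 0.20 in UM-UC-3 of the authors' deposited tables. SAMHD1, which hydrolyses dNTPs, fell by 0.42 ± 0.17 in UM-UC-3 (adjusted p = 0.049) and was at 0.40 ± 0.32 in A-375 in the authors' deposited tables. TYMP, the thymidine phosphorylase, was at -0.31 ± 0.43 and -0.05 ± 0.20 in A-375 and UM-UC-3, with a mean normalized count of 35.9 in the authors' deposited A-375 table, the fewest of the members there.

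Between the 2 cell lines, 3 of 34 members were called lower in both total-knockout tables (ADSL, DUT and ATIC), where 2.07% of 12642 genes with an adjusted p in both were; none was called higher in both. Another 3 were called in A-375 only, 15 in UM-UC-3 only and 13 in neither, where 6.55%, 27.6% and 62.0% of all genes were. Both changes lay below 0 for 20 of 34 members (58.8%), against 29.8% of all genes. They lay both above 0 for none and on opposite sides for 14. For these last classes, and for calls higher in both lines, the shares of all genes were not worked out, so these counts are a description only. The Spearman correlation of the changes was 0.25 over the 34 members and 0.25 over all genes, where the points share the libraries of each line and are not independent. The change itself was tested for a difference between the lines, as UM-UC-3 minus A-375 with the SEs of both fits. It passed for 5 members, 2 with a higher change in UM-UC-3 (PPAT and ADSS) and 3 with a lower one (HPRT1, NME1 and APRT), where 6.32% of all genes differed upward and 4.12% downward. None of the 3 members lower in both lines was among these: the differences were -0.43 ± 0.29 for ADSL (interval -0.99 to 0.13), 0.38 ± 0.38 for DUT (-0.37 to 1.12) and 0.50 ± 0.25 for ATIC (0.01 to 1.00).

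**Figure D4:**
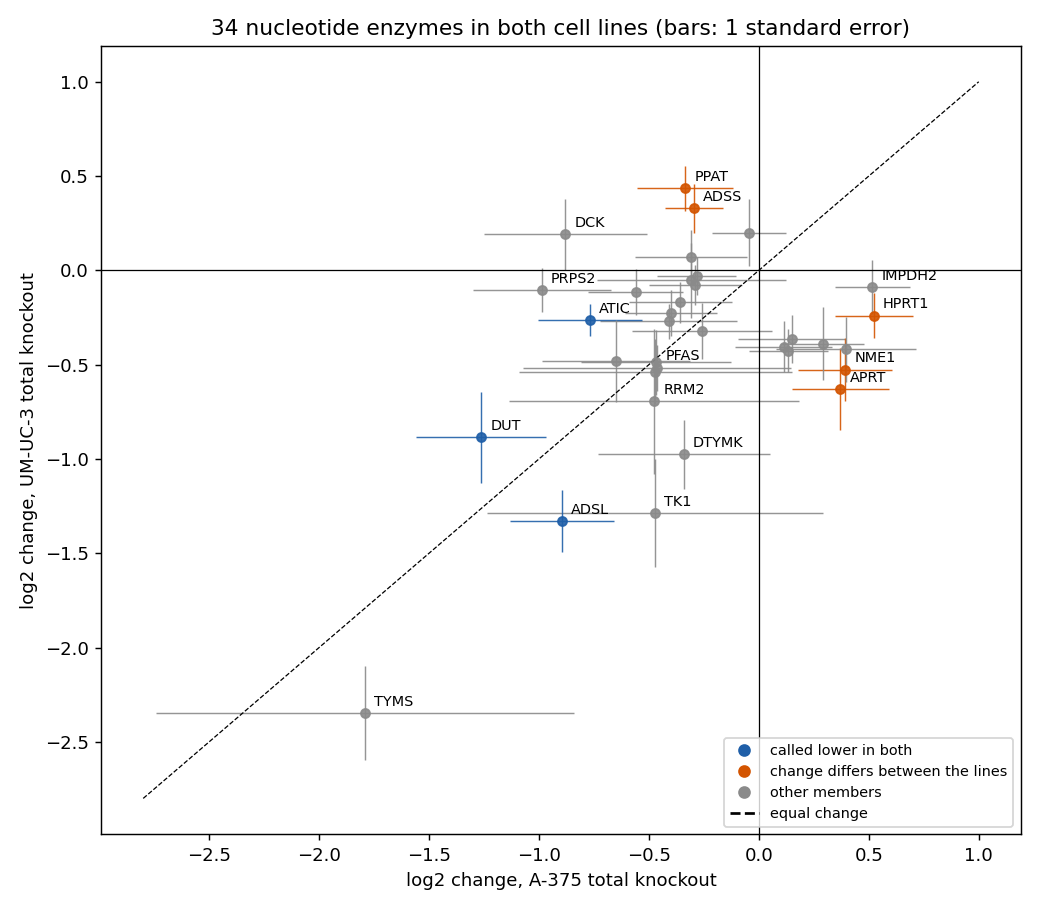
Log2 change in the UM-UC-3 total knockout against that in the A-375 total knockout for the 34 members with both, bars being 1 SE on each axis, from the authors' deposited tables, and the dashed line marking equal change. ADSL, DUT and ATIC (blue) are called lower in both, and PPAT, ADSS, HPRT1, NME1 and APRT (orange) differ between the lines; TYMS lies lowest on both axes with a wide A-375 bar.

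In A-375 the long-form knockout could be set beside the total knockout. The control libraries of these fits may be shared, in which case the SE of their difference is too wide. If they are not shared, a difference between controls enters as well and cannot be told apart from one between knockouts. Libraries that share a clone (12 libraries of 9 clones in the total knockout) can make that SE too narrow. As long-form minus total, 5 members were called higher, where 2.66% of all genes were: DUT by 1.41 ± 0.32 (adjusted p = 0.00203), ATIC by 1.02 ± 0.28 (0.0139), CTPS2 by 0.87 ± 0.23 (0.0141), PRPS2 by 1.26 ± 0.36 (0.0218) and ADSL by 0.88 ± 0.27 (0.0329). No member was called lower, where 1.79% of genes were. These 5 are the members called lower in the A-375 total knockout, so that their values there enter the difference. Their own long-form changes in the authors' deposited table were 0.15 ± 0.13 for DUT, 0.25 ± 0.14 for ATIC, 0.08 ± 0.15 for CTPS2, 0.27 ± 0.18 for PRPS2 and -0.02 ± 0.13 for ADSL. For each of these 5 the long-form interval lay wholly above the A-375 total interval, for ADSL -0.27 to 0.23 against -1.36 to -0.43. For TYMS the difference was 2.51 ± 0.98 (interval 0.59 to 4.43), which did not pass after adjustment (adjusted p = 0.121).

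The other genes of nucleotide metabolism, 47 enzymes and transporters on a list set beside the members, were called in both directions. Of 45 measured in A-375, 4 were called lower (8.89%) and 2 higher (4.44%), and of 43 in UM-UC-3, 8 were called lower (18.6%) and 8 higher (18.6%), per the authors' deposited tables. These shares lie near those of all genes, 5.74% and 5.07% in A-375 and 14.2% and 17% in UM-UC-3, and give no result about the list. The long-form fit called 0 of 45 by DESeq2, with 5 at an unadjusted p under 0.05, 2 above 0 and 3 below (4.44% and 6.67%, against 4.61% and 6.31% of all genes). ITPA, which hydrolyses ITP and had the lowest change of the list in both lines, fell by 1.68 ± 0.51 in A-375 (31.3% of control, adjusted p = 0.0163) and by 2.15 ± 0.28 in UM-UC-3 (22.6%, adjusted p = 4.54e-12), per the authors' deposited tables. NUDT1, which clears oxidized purine nucleotides, fell by 1.11 ± 0.21 in UM-UC-3 (adjusted p = 5.11e-06), per the authors' deposited tables. In A-375 NT5C, a deoxyribonucleotidase, fell by 0.96 ± 0.26 (adjusted p = 0.0058) and AK1, an adenylate kinase, rose by 0.86 ± 0.20 (adjusted p = 0.000737), per the authors' deposited table. ADSSL1, the muscle-type relative of ADSS, rose by 1.75 ± 0.31 in UM-UC-3 (adjusted p = 3.84e-07), per the authors' deposited table.

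Of 18 measured genes that supply serine and folate carbon, 4 were called lower (22.2%) and 2 higher (11.1%) in UM-UC-3 per the authors' deposited table. Of all genes 14.2% and 17% were, so the shares of calls lie near that background. At an unadjusted p under 0.05 by DESeq2, 8 of the 18 lay below 0 and 2 above (44.4% and 11.1%). The shares of all genes at that level were 18.6% and 22.6%, so the share below 0 is above the background. The smallest adjusted p on the list, from the authors' deposited table, were those of PHGDH and PSAT1, the first enzymes of serine synthesis, with log2 changes of -1.04 ± 0.17 (48.8% of control, adjusted p = 2.33e-08) and -0.94 ± 0.17 (52.1%, adjusted p = 1.38e-06). ALDH1L2, a mitochondrial folate dehydrogenase, rose by 1.27 ± 0.42 and MTHFS, which returns a stored folate to the pool, fell by 0.32 ± 0.12 (adjusted p = 0.0108 and 0.0307) in the authors' deposited UM-UC-3 table. In A-375 0 of 18 were called by DESeq2 and 1, below 0, had an unadjusted p under 0.05 (5.56%, against 13.9% of all genes). In the long-form fit 0 of 18 were called, with 2 at that level above 0 (11.1%, against 4.61%). The difference between the lines was not tested for this list. SHMT2, the mitochondrial hydroxymethyltransferase, was at -0.12 ± 0.24 in A-375 and -0.25 ± 0.12 in UM-UC-3 (adjusted p = 0.785 and 0.0796), per the authors' deposited tables. MYC, which activates many nucleotide genes in other settings, was at -0.54 ± 0.37 in A-375, 0.31 ± 0.39 in UM-UC-3 and -0.25 ± 0.24 in the long-form knockout, in the authors' deposited tables, with no call. Its relative MYCL rose in UM-UC-3 by 1.01 ± 0.30 (adjusted p = 0.00519), per the authors' deposited table, and its partner MAX was at 0.12 ± 0.11 there.

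**Figure D5:**
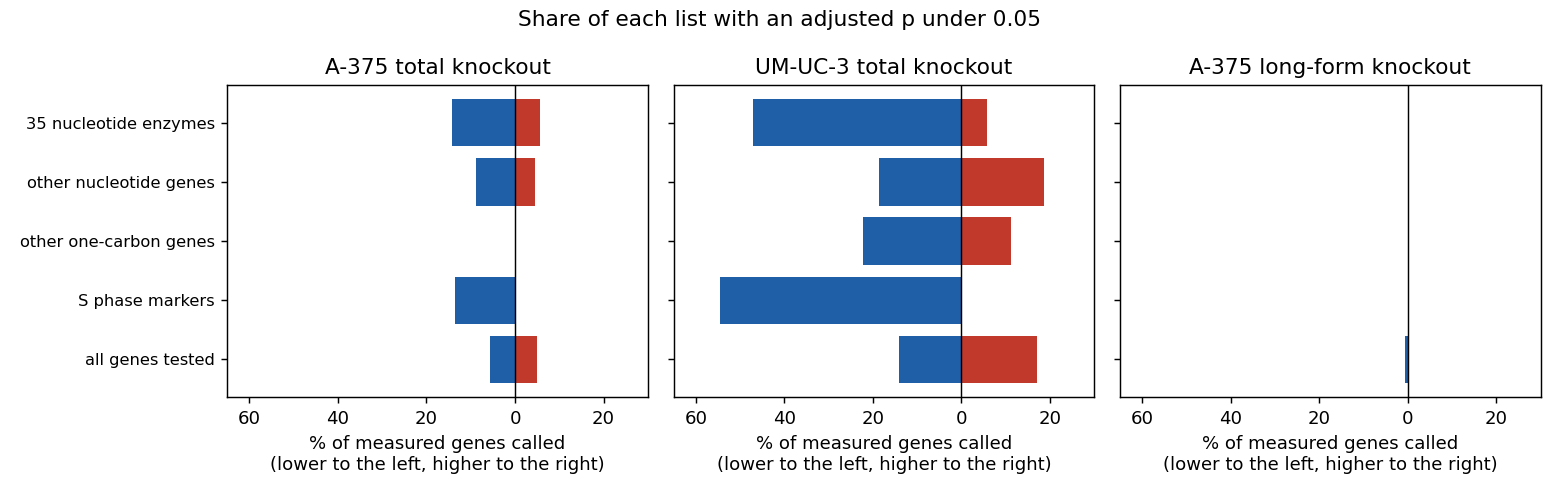
Share of measured genes called at an adjusted p under 0.05, lower to the left (blue) and higher to the right (red), for the 35 nucleotide enzymes, 3 lists beside them and all genes, in each table. In UM-UC-3 the nucleotide enzymes and the S phase markers are called lower in 16 of 34 and 12 of 22 genes, against 14.2% of all genes; in the long-form knockout none of the lists has a call.

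Per kilobase of the longest annotated transcript, NME2 and IMPDH2 had the highest mean normalized count of the members in every table, at 47.4 and 45.2 times the median gene in the A-375 total fit and 48.5 and 32.2 times in UM-UC-3. TYMP was the lowest member in every table, at 0.11 times the median gene in both A-375 tables and 0.39 times in UM-UC-3. These levels take the longest transcript for length, since the transcripts counted are not stated. For 9 members exons overlap another entry of the tables, and whether reads were counted by strand is not stated. TYMS shares 967 exon bases with ENOSF1 on the opposite strand, and ENOSF1 fell by 0.69 ± 0.23 in UM-UC-3 (adjusted p = 0.0138) and was at -0.28 ± 0.23 in A-375 in the authors' deposited tables. NME1 and NME2 share 638 and 603 exon bases with the read-through entry NME1-NME2, which was at 0.35 ± 0.42 in UM-UC-3 and -0.59 ± 0.82 in A-375 in the authors' deposited tables, so their split between entries is uncertain. TYMP shares 339 exon bases with SCO2 on its own strand, and SCO2 rose by 2.02 ± 0.52 in A-375 (adjusted p = 0.00335), per the authors' deposited table. For 13 members the annotation holds 39 named pseudogenes in all, including TYMS, DUT and NME1, and none of these has an entry, so reads from such copies could have been counted with the members or dropped.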

How the data were processed

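RNA from 33 cultures was sequenced, with a stranded mRNA kit per the labels' protocols. The submitters' processing notes list DESeq2, StringTie, HISAT2, SAMtools and build hg38 but no version. Annotation, filters, model and the controls of each fit were not given in the sources used here. Fewer unedited controls are counted in the design text than in the labels, and the labels were followed. The deposited tables give, per gene, a signal value (the mean over libraries of normalized counts), the log2 fold change with its standard error, a score (DESeq2's Wald statistic), and p-value columns (raw, Benjamini-Hochberg adjusted, q-value), per the file headers. Depth per library is unknown, so the standard error is the measure of precision; p-values measure the spread between libraries, several of which share a clone.

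Computed from these with Python 3.11.15, pandas 2.3.3, NumPy 2.4.6 and SciPy 1.17.1 were calls at an adjusted p under 0.05, 95% intervals, list counts and medians, and differences between tables (a 2-sided normal test of the difference of log2 changes, Benjamini-Hochberg adjusted over genes averaging 10 or more normalized counts in both). The difference procedure was run on simulated data with independent normal errors of the given SE. Controls shared between fits and libraries that share a clone were thus not covered. Implied levels solve the mean and the fold change for control and knockout, given the number of libraries in each. Annotation came from GENCODE release 29 and promoters from RefSeq on GRCh38.p14. All members are named; of other lists, up to 4 called genes with the smallest adjusted p per table, and RRM2B, SHMT2 and the MYC family; some genes that this rule names are not reported here. ENOSF1, NME1-NME2 and SCO2 were named for their overlap with members. The members and lists were chosen with earlier results of these data known. Alternatives were centring on the median gene, other thresholds, the q-value, a higher count minimum and other control sets.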

Additional observations from a re-analysis of the deposited data

Results flagged for a closer look

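For 5 enzymes the fitted change differed between UM-UC-3 and A-375 total knockouts by the test of the difference itself (normal test, Benjamini-Hochberg adjusted over all genes averaging 10 or more normalized counts in both tables). That is 2 of 34 members upward (5.88%) and 3 downward (8.82%), where 6.32% and 4.12% of all genes differed, so the upward count is at the background. The downward count, of 3 members, is too small to give a result about the list. PPAT, the first committed enzyme of purine synthesis, had a change 0.77 ± 0.25 (SE) higher in UM-UC-3 than in A-375 on the log2 scale (adjusted p = 0.0277), and ADSS, on the AMP arm, one 0.63 ± 0.19 higher (adjusted p = 0.015). The differences of HPRT1 and APRT, the purine salvage transferases, were -0.76 ± 0.22 (adjusted p = 0.00964) and -1.0004 ± 0.31 (adjusted p = 0.0197). NME1, a nucleoside diphosphate kinase, differed by -0.92 ± 0.27 (adjusted p = 0.0144). Each of the 5 has fitted changes on opposite sides of 0 in the 2 lines, and 1 of the 2 changes is called in each. The lines were fitted separately, UM-UC-3 with possibly 1 parental control library, and cell line and fit cannot be told apart.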

How the results depend on the processing

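No paired analysis was possible because the deposited tables hold no value of a single library, and for the same reason no replicate could be left out. Over 623 recomputed member values, 589 kept direction and side of the threshold, 26 lost a call, 5 gained one and 3 reversed, all 3 on centring by the median gene and none of them called: CMPK1 in the A-375 total knockout to 0.0064, and APRT and PPAT in the long-form knockout to -0.0076 and -0.0064. Most of the 623 had no call to lose, and the count minimums changed none. Of the 26 lost calls, 14 fell to the 1.5-fold minimum and 11 to the threshold of 0.01. The calls to begin with were 5 lower and 2 higher in A-375 and 16 lower and 2 higher in UM-UC-3, so many depend on these settings. At a threshold of 0.01 the calls were 0 higher and 3 lower in A-375 and 1 higher and 10 lower in UM-UC-3, with 1 member differing between the lines and 1 between long-form and total knockout. Requiring at least a 1.5-fold change as well left 0 higher in A-375, and 0 higher and 6 lower in UM-UC-3. Centring left 1 higher in UM-UC-3, where ADSS lost its call. CCGGAAGTG in place of CCGGAAG left 0 members with a promoter match. With the parental and ROSA26 libraries as controls, the implied control level of TYMS in UM-UC-3 was 8269 in place of 13255. Leaving RB1 out of the S phase list, chosen after seeing the data, gave 2 called lower in A-375 in place of 3 and changed no count in the other fits. Depth limits TYMP most in A-375, at a mean normalized count of 35.9, and high standard errors limit TYMS, TK1, RRM1, RRM2 and PFAS there.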
